A study of Mus musculus with 6 samples.

Results

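The genes described here are named for kinesins, centromere proteins or the anaphase-promoting complex, or act in mitosis. The set holds 73 of the 10128 genes in the authors' deposited table of mouse embryonic stem (ES) cells with and without Tex19.1. Its members were chosen by name, with earlier results of these data known. The symbols are Kif followed by a number, Cenp followed by a letter (Cenpb aside) and Anapc followed by a number. Added to them are 15 named genes of the spindle checkpoint, the mitotic kinases, the chromosomal passengers, the NDC80 complex and sister separation. By role they fall into 12 mitotic kinesins, 19 transport, ciliary and other kinesins, 14 genes of centromere chromatin and its constitutive network, 3 other Cenp genes, 11 genes of the anaphase-promoting complex with its activator Cdc20, 7 genes of the checkpoint and the NDC80 complex, 5 Aurora, Polo and passenger genes, and separase and securin. Kif1bp entered through its name, although it encodes a protein that binds kinesins and is no motor.

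Total RNA came from 3 libraries of Tex19.1-/- cells and 3 libraries of Tex19.1+/- cells. Both genotypes descend from the E14Tg2a ES line on a 129/Ola background and were kept between passages 12 and 18 in serum medium with leukaemia inhibitory factor. The Tex19.1+/- cells are heterozygous and carry 1 mutant copy themselves, so no wild-type cells enter the comparison. How many clones each genotype rests on is not given in the sources used here, and the p-values may measure technical spread between libraries only. The table gives 1 log2 fold change, 1 mean level, 1 p-value and 1 adjusted p for each gene but none for single libraries, so depth and spread are not given; "passed" below means an adjusted p under 0.05 in the authors' edgeR comparison over all genes. The header names no direction. Positive values are taken to mean higher in Tex19.1-/- cells, since Tex19.1 itself has the lowest value of the authors' deposited table, -6.92.

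All 10 pluripotency markers of the list used here were measured, at means of 192 to 1566 CPM (read counts scaled to library size), with 3 higher and 4 lower in the authors' deposited table. Endoderm markers moved with genotype: 11 of 13 were measured, at 7.38 to 158 CPM, and all 11 fell, with a median of -2.08 in the authors' deposited table. Of 9 fibroblast and feeder markers 3 were measured and all passed, with Fbn1 at -0.76, Vim at -0.33 and Fn1 at 0.23 in the authors' deposited table. Beside these counts, 51.7% of all genes tested passed, 25.2% higher and 26.5% lower. The part of either marker list in the values below was not tested. In such bulk samples, fewer cells of a type and less RNA per cell cannot be told apart.

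Kinesins are motors that use ATP to walk along microtubules or to take them apart. Some carry vesicles, organelles and ciliary cargo, and others slide, bundle and shorten spindle microtubules when cells divide. Centromere proteins mark the place on each chromosome where the kinetochore is built, and the kinetochore binds spindle microtubules. Until every kinetochore is attached, the spindle checkpoint holds back the anaphase-promoting complex, a ubiquitin ligase whose targets include securin and cyclin B. ES cells divide fast and have short gap phases, so a large share of them is in S, G2 or M phase at any time.

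Of the 54 mitotic genes 38 did not pass, and the largest differences lay among the transport kinesins: Kif21a, Kif1a and Kif5c rose, and Kif26a, Kif5a and Kif1b fell in Tex19.1-/- cells. Over all 73 genes, 18 rose and 9 fell in Tex19.1-/- cells and 46 did not pass. These 27 are 37.0% of the members, where 51.7% of all genes tested passed, 25.2% higher and 26.5% lower. The median log2 fold change of the members was 0.0097 in the authors' deposited table, and that of all genes was 0.0031. Their median absolute log2 fold change was 0.071, and that of all genes was 0.113. With the median of its 40 nearest measured genes subtracted from each fold change, 16 rose and 13 fell. A call with a log2 fold change of 0.2 or more in size was made for 11 of the 73 members (15.1%), and for 29.2% of all genes tested. The 54 members outside the transport, ciliary and other kinesins held 4 of these 11: Cenpu, Kif20a, Anapc13 and Cenpp. Mitotic is a loose label for these 54, since they include Cenpj, which builds centrioles. Kif2a, a microtubule depolymerase like the mitotic Kif2c, is counted outside them. The 19 transport, ciliary and other kinesins held the other 7. At any size 57.9% of the 19 and 29.6% of the 54 passed, beside the 51.7% of all genes. By role the share was 25% for mitotic kinesins and 35.7% for centromere chromatin and its network. It was 18.2% for the anaphase-promoting complex with Cdc20, 28.6% for checkpoint and NDC80 genes and 80% for Aurora, Polo and passenger genes.

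**Figure D1:**
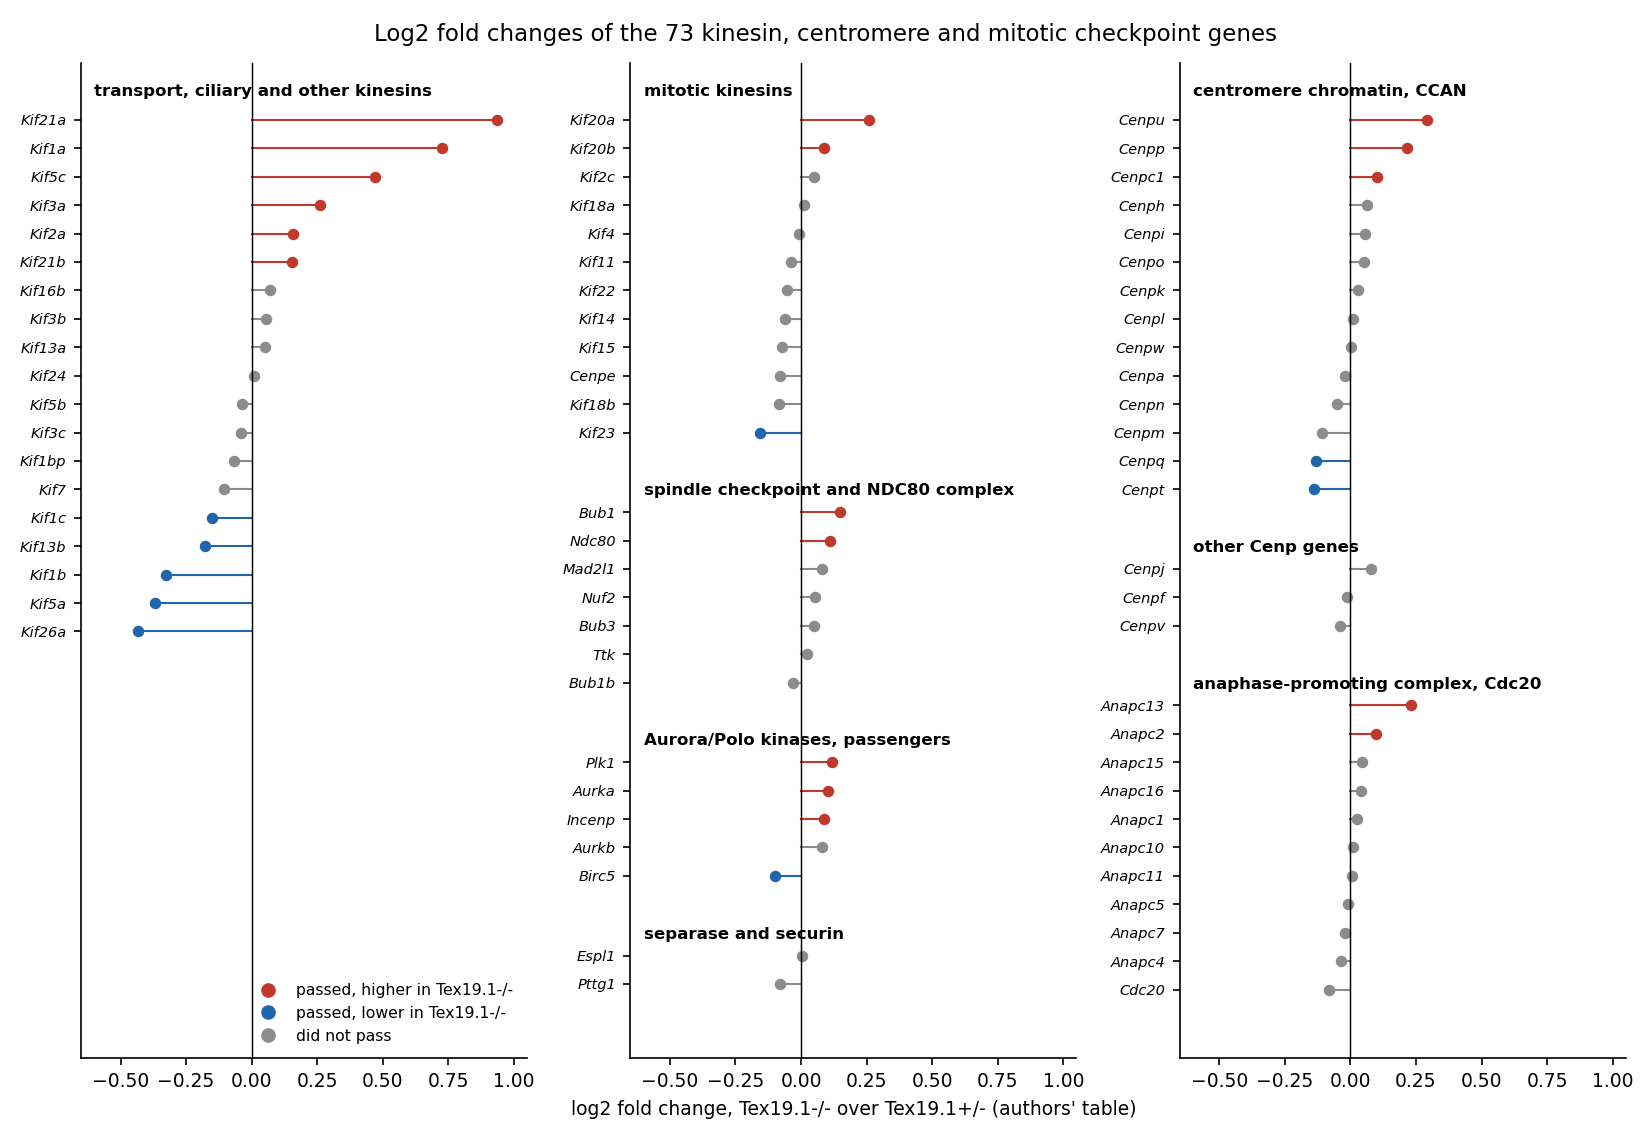
Log2 fold change of each of the 73 genes, Tex19.1-/- over Tex19.1+/-, from the authors' deposited table, by role and in falling order. Red and blue points passed an adjusted p of 0.05 and grey points did not; the longest lines belong to Kif21a at 0.93, Kif1a at 0.73 and Kif5c at 0.47, all in the left panel.

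The threshold lay close to the smallest differences. Kif20b passed at 0.086 with a mean of 129 CPM, the smallest called difference among the members in the authors' deposited table. Cenpm did not pass at -0.11 with 21.8 CPM, the largest difference among the 46 that missed the threshold there. A member that did not pass is not shown to be equal in both genotypes.

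Among the transport, ciliary and other kinesins 6 rose, 5 fell and 8 did not pass. The share that passed, 57.9%, lay near the 51.7% of all genes tested. Kif21a, a kinesin that restrains microtubule growth in neurons, was 1.91-fold higher, or 0.93 in log2 units, in the authors' deposited table (adjusted p = 4.74e-36). In size that difference exceeds those of 98.3% of all genes tested. Kif1a, the motor of synaptic vesicle precursors in axons, stood at 0.73 in the authors' deposited table (adjusted p = 1.67e-23). Kif5c, a conventional kinesin heavy chain of neurons, stood at 0.47 in the authors' deposited table (adjusted p = 1.53e-17). All 3 were scarce transcripts, with means of 9.61 to 19.7 CPM. In GRCm38 Kif21a lies on chromosome 15 from 90933276 to 91049948, Kif1a on chromosome 1 from 93015464 to 93101951 and Kif5c on chromosome 2 from 49619298 to 49774778.

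The largest fall was that of Kif26a, an atypical kinesin without ATPase activity that acts in enteric nerve development. It stood at -0.43 (adjusted p = 3.92e-13) with a mean of 15.5 CPM in the authors' deposited table. Kif5a, the neuronal heavy chain related to Kif5c, fell by 0.37 on the log2 scale in the authors' deposited table (adjusted p = 8.64e-09). Kif1b, which carries mitochondria and synaptic vesicle precursors, was at -0.33 in the authors' deposited table (adjusted p = 5.42e-13). Smaller falls were those of Kif13b, a vesicle motor, at -0.18 and of Kif1c, a motor of Golgi-derived vesicles, at -0.15 in the authors' deposited table.

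Kinesin-2 motors carry cargo along cilia. Kif3a rose by 0.26 on the log2 scale in the authors' deposited table (adjusted p = 3.33e-05), while its dimer partner Kif3b at 0.056 and the related Kif3c at -0.040 did not pass. Kif2a, which depolymerises microtubule ends, rose by 0.16 and Kif21b by 0.15 in the authors' deposited table. The Kif21b value (adjusted p = 0.0463) has the highest adjusted p of all called members in the authors' deposited table, and its call was lost with the median of all genes subtracted. Members that did not pass include Kif7, a regulator of Hedgehog signalling at the tip of the cilium, at -0.10, Kif16b, a motor of early endosomes, at 0.069, Kif13a at 0.050 and Kif24, a depolymerase of centrioles, at 0.0079 in the authors' deposited table. Kif1bp was at -0.068 in the authors' deposited table and did not pass either.

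In the KIF5 and KIF1 families close relatives passed in opposite directions. Levels are given here as CPM per kilobase of annotated exon, a mean over all libraries. In the KIF5 family Kif5b, the heavy chain found in nearly all cell types, had 31.1 CPM per kilobase, or 86.1% of the family's summed level. Kif5c with 2.76 and Kif5a with 2.25 CPM per kilobase made up the rest. The log2 fold change of Kif5b was -0.038 in the authors' deposited table (adjusted p = 0.425), between the rise of Kif5c and the fall of Kif5a.

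In the KIF1 family Kif1c held 67.1% of the summed level, at 7.47 CPM per kilobase, and Kif1b 22.4%, at 2.49; both fell. Kif1a, which rose, held 10.6%, at 1.18 CPM per kilobase. In the KIF21 family both copies passed in the same direction, with Kif21a at 1.48 and Kif21b at 0.841 CPM per kilobase, the lowest level per length of all 73 genes. Kif13a and Kif13b had like levels, 6.03 and 5.94 CPM per kilobase, and of these Kif13b passed. Whether relatives differ from each other was not tested, since the table holds a test per gene and none between genes.

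**Figure D2:**
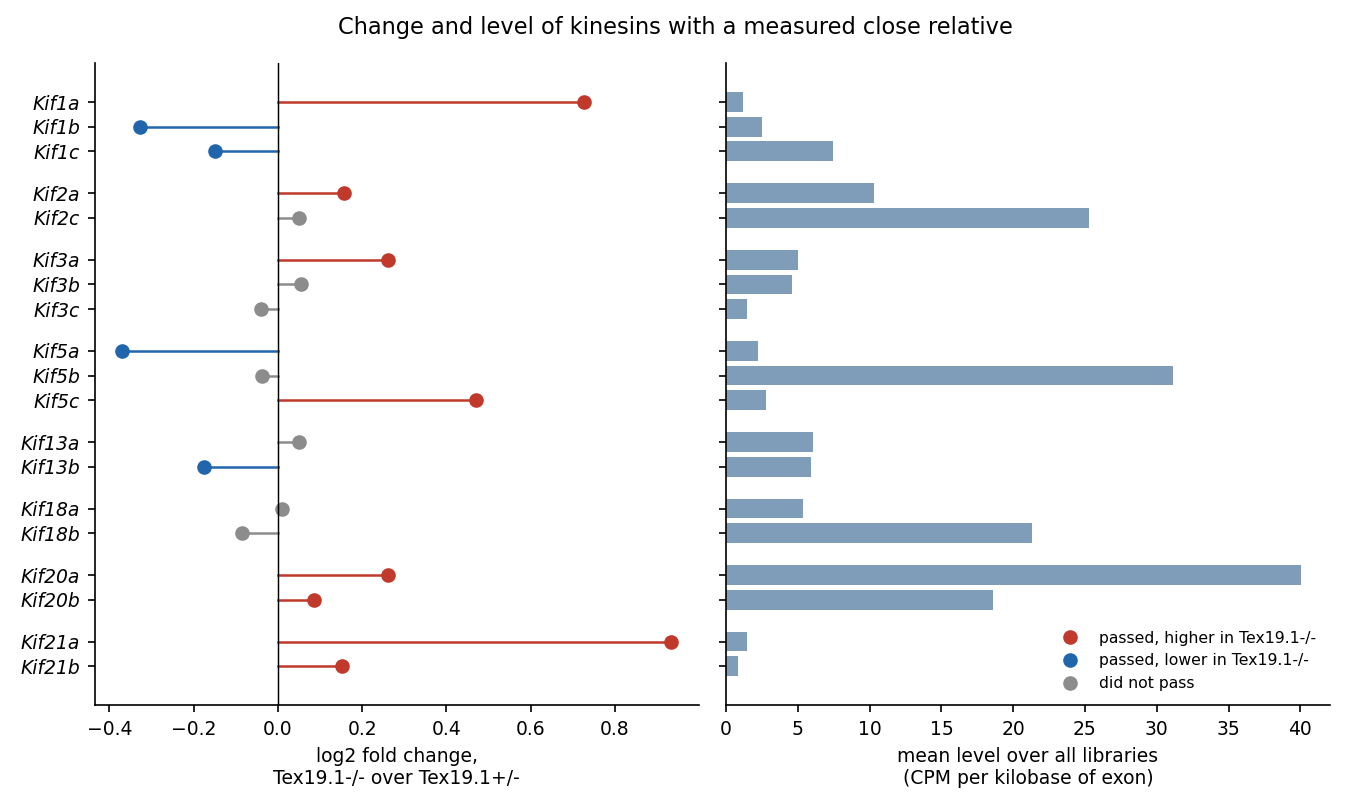
Left, log2 fold change (Tex19.1-/- over Tex19.1+/-, authors' deposited table) of kinesins with a measured close relative; right, their mean level over all libraries in CPM per kilobase of exon. Of the most abundant copies of each family, Kif5b, Kif2c, Kif18b and Kif13a did not pass, while Kif20a, Kif1c, Kif3a and Kif21a did. The longest red lines are those of Kif21a, Kif1a and Kif5c, at 1.48, 1.18 and 2.76 CPM per kilobase.

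Of the 12 mitotic kinesins 2 rose, 1 fell and 9 did not pass, with a median log2 fold change of -0.047. Kif20a, which brings the chromosomal passenger complex to the central spindle for cytokinesis, rose by 0.26 on the log2 scale in the authors' deposited table (adjusted p = 9.73e-13). It is an abundant transcript, with a mean of 174 CPM. Its relative Kif20b, which acts in the final cut between daughter cells, stood at 0.086 in the authors' deposited table (adjusted p = 0.0417). The Kif20b call was lost with the median of all genes, the median of the 40 nearest genes or the GC and length trend subtracted. Kif23, the motor of centralspindlin, fell by 0.16 in the authors' deposited table (adjusted p = 0.000152).

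Kif20a lies on chromosome 18 from 34624613 to 34633277 (GRCm38, plus strand), and 29.3% of its exon bases overlap exons of Cdc23 on the opposite strand. Cdc23, a subunit of the anaphase-promoting complex, moved the other way, at -0.17 in the authors' deposited table (adjusted p = 4.67e-06). The library kit keeps strand, but the strand setting of the counting is not given in the sources used here. How reads of the shared exons were counted, or whether they were counted at all, is therefore not known.

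The other 9 mitotic kinesins lay between -0.085 and 0.051 in the authors' deposited table. With the median of the 40 nearest genes subtracted, 3 of them passed as lower: Kif18b at -0.19 (adjusted p = 1.45e-05), Kif11 at -0.11 (adjusted p = 0.00926) and Cenpe at -0.093 (adjusted p = 0.0334). Kif11, the motor that pushes spindle poles apart, was at -0.040 (adjusted p = 0.370), and Kif15, which can stand in for it, at -0.071 in the authors' deposited table. Kif2c, the depolymerase that corrects faulty attachments at centromeres, was at 0.051 in the authors' deposited table. The chromokinesins Kif4 and Kif22 were at -0.0071 and -0.053, and the plus-end regulators Kif18a and Kif18b at 0.0097 and -0.085 in the authors' deposited table. Cenpe, the kinesin that moves chromosomes to the spindle equator, was at -0.082 (adjusted p = 0.0654), and Kif14, a cytokinesis motor, at -0.061 in the authors' deposited table.

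**Figure D3:**
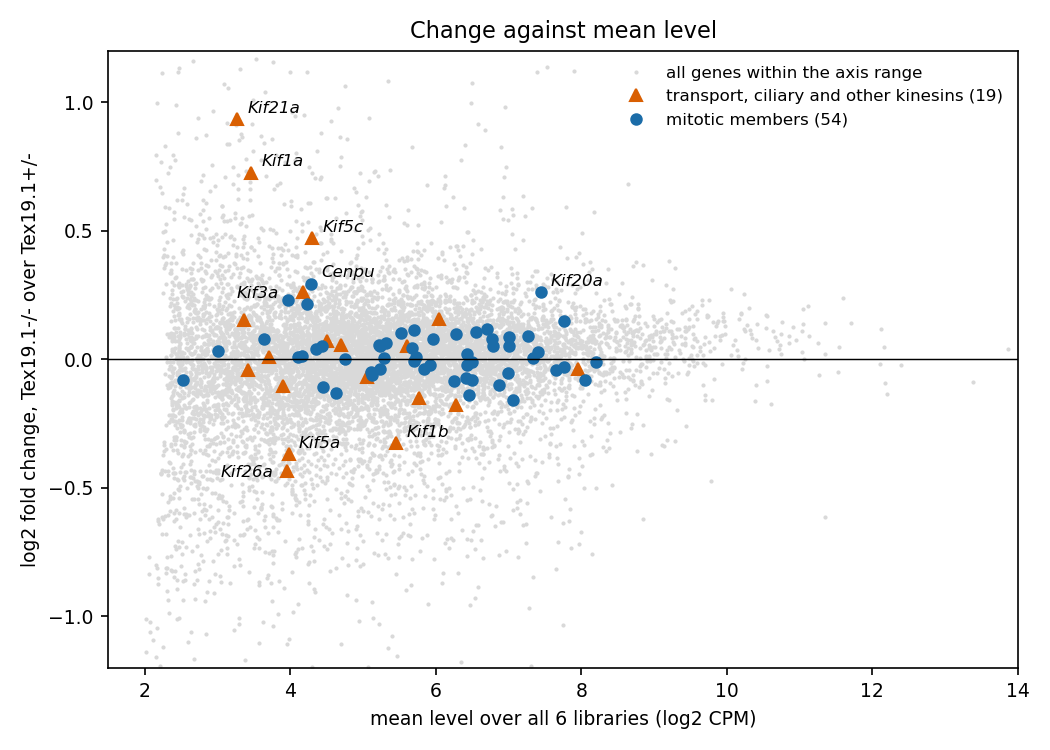
Log2 fold change (Tex19.1-/- over Tex19.1+/-) against mean log2 CPM over all 6 libraries, both from the authors' deposited table, for all genes within the axis range (grey), the 54 mitotic members (blue circles) and the 19 transport, ciliary and other kinesins (orange triangles). The blue circles stay between -0.16 and 0.29, while the orange triangles reach from -0.43 to 0.93 and those farthest out lie at low mean levels.

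At the centromere, 3 of the 14 genes of centromere chromatin and the constitutive network rose, 2 fell and 9 did not pass, with a median log2 fold change of 0.020. Cenpa, the histone H3 variant that defines the centromere, was at -0.022 (adjusted p = 0.673) with a mean of 86.4 CPM in the authors' deposited table. Cenpc1, whose protein joins that chromatin to the outer kinetochore, passed at 0.10 in the authors' deposited table (adjusted p = 0.0369). That call was lost with the median of the 40 nearest genes or the GC and length trend subtracted. The largest differences were those of Cenpu at 0.29 (adjusted p = 1.23e-07) and Cenpp at 0.22 in the authors' deposited table (adjusted p = 0.000174).

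Both belong to the CENP-O subcomplex, which binds near CENP-A chromatin and, through CENP-U, recruits Polo-like kinase. Directions within the subcomplex were mixed: Cenpq fell by 0.13 (adjusted p = 0.0120) and Cenpo at 0.054 did not pass in the authors' deposited table. Its remaining subunit CENP-R is encoded by Itgb3bp, a gene outside the naming rule, which stood at 0.33 (adjusted p = 4.47e-05) with a mean of 7.61 CPM in the authors' deposited table. Cenpu shares 26.7% of its exon bases with Primpol on the opposite strand, and Primpol was at 0.18 in the authors' deposited table (adjusted p = 0.0421). Cenpp likewise shares 12.3% with Ippk, which did not pass (adjusted p = 0.264 in the authors' deposited table).

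Cenpt, which provides a second route from centromere chromatin to the NDC80 complex, fell by 0.14 in the authors' deposited table (adjusted p = 0.000878). Its histone-fold partner Cenpw was at 0.00069 in the authors' deposited table. Cenph, Cenpi, Cenpk, Cenpl, Cenpm and Cenpn, other subunits of the network, ranged from -0.11 to 0.062 in the authors' deposited table, and none of the 6 passed. The other Cenp genes have separate roles, and none of them passed. Cenpf, a large corona protein of the kinetochore, was at -0.011 in the authors' deposited table. Cenpj, which builds centrioles, was at 0.079 (adjusted p = 0.318) and Cenpv at -0.040 (adjusted p = 0.526) there.

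Of the 10 Anapc genes, which encode subunits of the anaphase-promoting complex, 2 rose and none fell, and 9 of the 10 lay under 0.1 in size. Anapc13, a small subunit that stabilises the complex, was at 0.23 (adjusted p = 0.000563) with a mean of 15.6 CPM in the authors' deposited table. Anapc2, the cullin subunit of the catalytic core, was at 0.097 (adjusted p = 0.0273), and its RING partner Anapc11 at 0.0060 in the authors' deposited table. Anapc13 shares exon bases with Cep63 on the opposite strand, which was at 0.13 in the authors' deposited table (adjusted p = 0.0466). The Anapc2 call was lost with the median of the 40 nearest genes subtracted. The scaffold and repeat subunits Anapc1, Anapc4, Anapc5 and Anapc7 ranged from -0.037 to 0.027, and Anapc10, Anapc15 and Anapc16 from 0.011 to 0.043 in the authors' deposited table.

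Cdc20, the activator that the checkpoint sequesters, was at -0.081 in the authors' deposited table (adjusted p = 0.0641), the lowest adjusted p among the members that did not pass. It passed as lower when the median of the 40 nearest genes was subtracted (-0.13, adjusted p = 0.0030). Per length it was the most abundant of the 73 genes, at 142 CPM per kilobase, ahead of Bub1b at 50.9, Bub1 at 50.02 and Anapc5 at 48.0. Outside the naming rule, the complex also uses subunits and enzymes listed under other names. Of 9 such genes, 1 rose and 2 fell (33.3%, beside 51.7% of all genes), with Cdc23 at -0.17 and the activator Fzr1 at -0.12 in the authors' deposited table (adjusted p = 0.00665).

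Of the 7 checkpoint and NDC80 genes 2 rose and none fell. Bub1, the kinase that gathers checkpoint proteins at kinetochores, rose by 0.15 (adjusted p = 0.000377) with a mean of 218 CPM in the authors' deposited table. Ndc80, which binds microtubules directly, rose by 0.11 (adjusted p = 0.0122), and its partner Nuf2 was at 0.052 in the authors' deposited table. The other subunits of the complex, outside the naming rule, are Spc24 at 0.25 (adjusted p = 2.21e-10) and Spc25 at 0.070 in the authors' deposited table (adjusted p = 0.202).

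Mad2l1, the protein that binds Cdc20 in the checkpoint complex, was at 0.080 (adjusted p = 0.0819), Bub1b at -0.032 and Bub3 at 0.050 in the authors' deposited table. Ttk, the kinase that starts the checkpoint signal, was at 0.022 there (adjusted p = 0.657). None of these 4 passed. Ttk passed as higher when the median of its 40 nearest genes was subtracted (0.11, adjusted p = 0.0105), and Mad2l1 after removal of the GC and length trend (0.095, adjusted p = 0.0385). The spread used for that Ttk call was borrowed from genes of like mean level.

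Of the 5 Aurora, Polo and passenger genes 3 rose and 1 fell, and each difference was 0.12 or less in size. Plk1, the Polo kinase of mitotic entry and cytokinesis, rose by 0.12 in the authors' deposited table (adjusted p = 0.00287). Aurka, the spindle pole kinase, was at 0.10 in the authors' deposited table (adjusted p = 0.00913). Its call was lost after removal of the GC and length trend (0.075, adjusted p = 0.0699).

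Chromosomal passengers went both ways. Incenp, the scaffold of the complex, was at 0.089 (adjusted p = 0.0246), Birc5, also known as survivin, at -0.10 (adjusted p = 0.0149), and the kinase gene Aurkb at 0.079 in the authors' deposited table (adjusted p = 0.103). With the median of the 40 nearest genes subtracted, neither Incenp (adjusted p = 0.487) nor Birc5 (adjusted p = 0.135) passed. Cdca8, the fourth passenger, which the naming rule leaves out, was at 0.080 in the authors' deposited table (adjusted p = 0.0536). Separase and its inhibitor securin did not pass: Espl1 was at 0.0034 and Pttg1 at -0.081, and Pttg1 had the lowest mean CPM of all 73 genes, 5.73, in the authors' deposited table.

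Related genes that the naming rule leaves out were counted by list, with the share that passed in brackets. Of all genes tested 51.7% passed. Among 31 other kinetochore and checkpoint genes measured, 7 rose and 5 fell (38.7%), with a median of 0.045. Among 27 other spindle and cytokinesis genes 2 rose and 6 fell (29.6%). There Cdc14b, a phosphatase gene, was at -0.44 and Haus4 and Haus5, subunits of the microtubule-branching augmin complex, at -0.28 and -0.22, against 0.25 for the gamma-tubulin gene Tubg1, in the authors' deposited table. Of 10 condensin and mitotic chromosome genes 2 rose and 1 fell (30%), led by Ncapd2 at -0.14 and Ncapg at 0.12 in the authors' deposited table.

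Of 18 regulators of mitotic entry 4 rose and 6 fell (55.6%, near the 51.7% of all genes). Bora, an activator of Aurora A and Plk1, was at -0.77 in the authors' deposited table (adjusted p = 5.56e-71). The 40 measured genes nearest to it on chromosome 14 had a median of -0.64. Cdc25b, the phosphatase that activates CDK1, was at 0.43 beside a local median of 0.23 on chromosome 2, and Ccnf at -0.22 in the authors' deposited table. Among 21 kinesin partners and dynein-dynactin genes 4 rose and 7 fell (52.4%, again near that of all genes). The kinesin light chain gene Klc2 was at 0.28, the dynein regulator gene Nde1 at -0.25 and the minus-end kinesin gene Kifc3 at -0.25 in the authors' deposited table. The dynein light chain gene Dynll2 was at 0.29 there, beside a local median of 0.11 on chromosome 11.

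**Figure D4:**
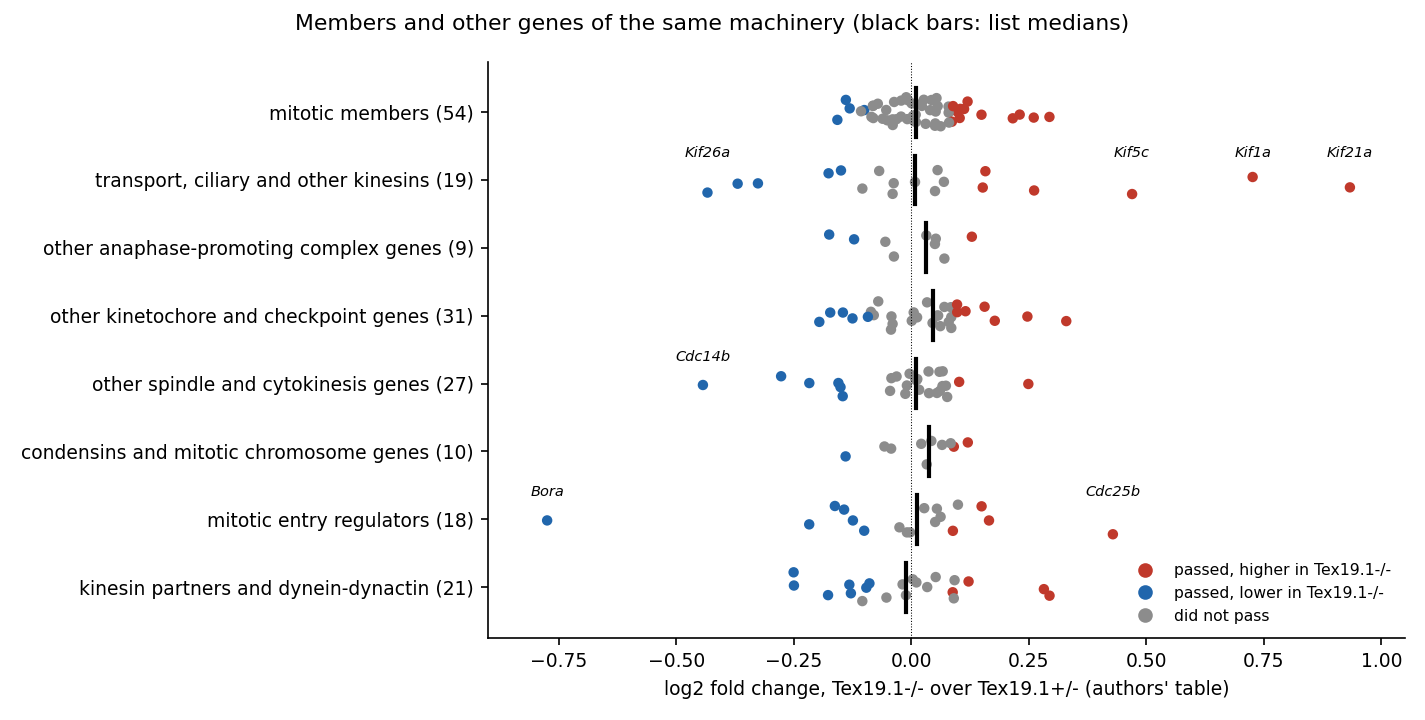
Log2 fold change (Tex19.1-/- over Tex19.1+/-, authors' deposited table) of the mitotic members, the transport, ciliary and other kinesins, and the 6 lists of related genes, with the number measured in brackets; vertical position within a row is jitter and black bars are medians. The medians all lie between -0.011 and 0.045, and the points farthest from 0 are Kif21a at 0.93 and Bora at -0.77.

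The members lie on 19 chromosomes, and none stands in surroundings as shifted as those of Bora. The median log2 fold change of the 40 nearest measured genes ranged from -0.088 to 0.14 over the members, and it reached 0.1 in size for 8 of them. Of these 8, Kif3a and Kif1c passed. Both lie on chromosome 11 (GRCm38), Kif3a from 53567379 to 53601967 with a local median of 0.11 and Kif1c from 70700548 to 70731964 with a local median of 0.14. With the local median subtracted, Kif3a stood at 0.15 (adjusted p = 0.0238) and Kif1c at -0.29. Each of the 11 members that passed with a log2 fold change of 0.2 or more in size kept its direction and its call under that setting, and also with the median of all genes or the GC and length trend subtracted.

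**Figure D5:**
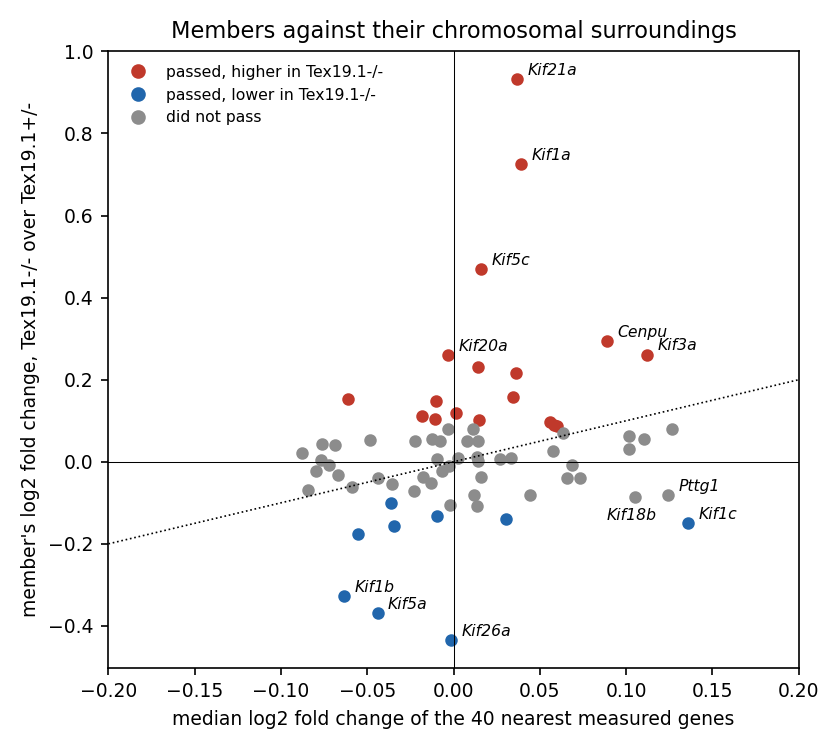
Log2 fold change of each member (Tex19.1-/- over Tex19.1+/-, authors' deposited table) against the median log2 fold change of its 40 nearest measured genes; the dotted line marks equal values. The surroundings stay between -0.088 and 0.14, and Kif21a, Kif1a, Kif5c, Kif26a, Kif5a and Kif1b lie far off the line.

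Promoters of genes that peak in G2 and M phase often hold CCAAT boxes, bound by the factor NF-Y, and the cell cycle homology element, bound by the DREAM and MuvB complexes. The 250 bases before the start of each gene were searched for CCAAT, for TTTGAA or TTCGAA as the homology element, and for GGCGGGA as an E2F-type element, on both strands and with overlaps allowed, in the RefSeq promoter table (GRCm38.p6, first listed start of each gene). Of the 54 mitotic members 51 matched the table, and 25 of these (49.0%) held CCAAT, where 34.5% of all 27025 promoters and 37.4% of those of measured genes did. The homology element was found in 15 of the 51 (29.4%), against 17.4% of all promoters and 11.7% of those of measured genes. GGCGGGA was found in 8 of the 51 (15.7%), against 9.76% of all promoters and 19.9% of those of measured genes. Of the 19 transport, ciliary and other kinesins 14 matched, and 4 (28.6%), 1 (7.14%) and 3 (21.4%) of them held the 3 elements in that order. A match describes the letters in this window and is not a site shown to be bound.

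Both CCAAT and the homology element were found for 12 members: Bub1b, Bub3, Cdc20, Cenpl, Cenpm, Cenpn, Cenpw, Espl1, Kif11, Kif14, Kif22 and Kif24. None of the 12 passed in the authors' edgeR comparison, where 50.7% of the 371 measured genes with both elements did. Members passed less often in any case, 37.0% of all 73 and 29.6% of the 54 mitotic ones. A link to the elements was not tested. At an unadjusted p under 0.05 Cdc20 alone would have passed. With the median of the 40 nearest genes subtracted Cdc20 and Kif11 passed, and after removal of the GC and length trend Cdc20 and Cenpm did.

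The promoters of 2 of these genes are shown beside those of a kinesin that rose, Kif5c, and of one that fell, Kif1b. Each is written 5′ to 3′ on the gene's own strand (RefSeq sequence, GRCm38.p6) and ends before the first annotated exon, so bases inside annotated genes are left out; capitals mark matches to any of the searched elements on either strand.
Kif11 (chr19:37376132-37376381, plus strand): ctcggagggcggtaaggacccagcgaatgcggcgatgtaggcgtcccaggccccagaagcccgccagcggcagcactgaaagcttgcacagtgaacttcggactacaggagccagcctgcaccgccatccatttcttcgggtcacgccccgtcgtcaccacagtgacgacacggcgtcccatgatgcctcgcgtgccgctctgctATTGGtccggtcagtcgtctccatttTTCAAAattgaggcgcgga
Cdc20 (chr4:118437353-118437593, minus strand): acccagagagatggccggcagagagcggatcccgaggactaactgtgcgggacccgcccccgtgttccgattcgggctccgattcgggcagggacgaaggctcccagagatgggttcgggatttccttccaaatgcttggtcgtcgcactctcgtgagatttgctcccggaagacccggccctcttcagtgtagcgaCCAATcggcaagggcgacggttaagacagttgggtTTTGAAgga
Kif5c (chr2:49619036-49619285, plus strand): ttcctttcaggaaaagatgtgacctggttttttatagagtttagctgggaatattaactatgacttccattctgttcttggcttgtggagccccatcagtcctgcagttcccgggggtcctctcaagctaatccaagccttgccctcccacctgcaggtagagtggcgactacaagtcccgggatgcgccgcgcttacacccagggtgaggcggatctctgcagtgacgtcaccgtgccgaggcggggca
Kif1b (chr4:149307774-149307983, minus strand): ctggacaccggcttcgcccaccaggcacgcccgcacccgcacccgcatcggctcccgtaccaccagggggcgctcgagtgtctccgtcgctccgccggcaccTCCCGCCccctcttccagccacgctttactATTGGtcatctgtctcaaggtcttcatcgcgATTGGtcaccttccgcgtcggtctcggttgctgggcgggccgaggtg
In Kif11 the CCAAT match, read on the opposite strand, starts 45 bases before the start and the homology element 19 bases before it. In Cdc20 they start 53 and 18 bases before the start, and the sequence shown stops 9 bases short of that start. The Kif5c window holds none of the searched elements, and that of Kif1b holds CCAAT matches at 118 and 87 bases and an E2F-type match at 148 bases before the start. The Kif1b sequence shown stops 40 bases short of its start.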

How the data were processed

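RNA from 6 ES cell libraries, 3 Tex19.1-/- and 3 Tex19.1+/-, was sequenced after the TruSeq Stranded mRNA kit, per the labels' protocols. Trim Galore 0.4.1, TopHat2 2.1.0, HTSeq 0.11.2, edgeR and the build mm10 are named in the submitters' processing notes. Not given in the sources used here are edgeR's version and test, the annotation, the strand setting and the filter on low counts. Per the file headers, each gene in the deposited table has a log2 fold change, a mean log2 CPM, a p-value and an adjusted p-value. A count model had been planned, but without values for each library the authors' own tests were used in its place, and depth is unknown. The lowest mean was 1.82 log2 CPM, so genes of lower expression are not analysed here.

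The members and lists were chosen with earlier results of these data known. Genes were called at an adjusted p under 0.05. Any member may be named. Members past the threshold with a log2 fold change of 0.2 or more in size, the 2 smallest p-values of each role and 10 fixed genes get full values, and in the related lists the same size rule and the 2 smallest p-values apply; other genes of those lists (Spc25, Cdca8) and overlapping partners (Primpol, Ippk, Cep63, Dimt1) were named after their values were seen. Positions, exon lengths and GC content come from GENCODE M21 (GRCm38): 9587 symbols matched directly and 137 through RefSeq synonyms. The settings tried beside this were Bonferroni adjustment, an adjusted p under 0.01, a size of at least 0.2, genes of at least 16 CPM, no Kif1bp, and fold changes less the median of all genes, the median of the 40 nearest genes on the chromosome, or a lowess trend (span 0.3) on transcript GC content and length. For the last 3, p was recomputed from the spread that the authors' p implies as a normal deviate, with Benjamini-Hochberg adjustment (scipy 1.17.1, statsmodels 0.14.6). Genes with an authors' p above 0.5 took the median spread of 201 genes of like mean level instead. These steps were tested on simulated data.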

Additional observations from a re-analysis of the deposited data

How the results depend on the processing

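The count of 27 members that passed, 18 higher and 9 lower, fell to 9 (5 higher and 4 lower) under Bonferroni adjustment and to 11 (8 higher and 3 lower) with a log2 fold change of 0.2 or more in size required. At an adjusted p under 0.01 it was 19, with only genes of at least 16 CPM 21 of the 61 members then tested, and with the median of all genes, the median of the 40 nearest genes or the GC and length trend subtracted 25, 29 and 27; without Kif1bp it stayed 27. The share of all genes that passed was 23.8% under Bonferroni adjustment, 29.2% with the size rule, 41.3% at 0.01 and 50.0% to 51.7% in the others. The median log2 fold change of the members ranged from 0.0043 to 0.011 over these 8 settings. The 19 transport, ciliary and other kinesins kept 7 of their 11 calls under Bonferroni adjustment. The filter at 16 CPM took 5 of the 11 (Kif21a, Kif1a, Kif26a, Kif5a and Kif21b) out of testing and left 6 called. The 54 mitotic members kept 2 of 16 under Bonferroni adjustment and 9 at an adjusted p under 0.01.

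No member that passed under any of the 3 subtractions changed direction. Subtracting the median of all genes ended 2 calls (Kif20b and Kif21b). Subtracting the local median ended 5 (Kif20b, Cenpc1, Anapc2, Birc5 and Incenp) and gave 7 (Cenpe, Kif18b, Kif11, Cenpv, Cdc20, Anapc15 and Ttk). Subtracting the GC and length trend ended 3 (Kif20b, Cenpc1 and Aurka) and gave 3 (Cenpm, Cdc20 and Mad2l1). The cause was not tested.

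No paired analysis was possible because the table used here holds no values per library; for the same reason leaving out each replicate and another normalization were not run. Low mean levels limit the precision of the scarce kinesins, and exon overlap on the opposite strand, counted down to the share in Anapc13, limits the called Kif20a, Cenpu, Kif2a, Cenpp and Anapc13 and, among members that did not pass, Anapc15 (38.4%), Kif3c (35.3%), Kif7, Cenpo (19%), Kif4 (15.1%) and Kif1bp. The partner of Kif2a, Dimt1, was at 0.13 in the authors' deposited table.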
